A study of Mus musculus with 4 samples.

Results

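The cells described here are the cycling B cells of libraries 5 and 6, numbered as in the deposited barcodes: 784 cells of the 8910 in these libraries that passed the filters, in a series of 19920 barcodes of which 18534 passed. They were chosen by their own counts of unique molecular identifiers (UMIs, each standing for 1 captured mRNA molecule). A cell was taken when it had fewer than 5 UMIs of Jchain, the joining chain of secreted immunoglobulin, and either at least 10 UMIs summed over the 8 mitotic genes Mki67, Top2a, Birc5, Cenpf, Ube2c, Cdk1, Hmmr, and Tpx2 (the mitotic limit), or at least 0.1% of its UMIs in the 7 replication genes Mcm2, Mcm3, Mcm4, Mcm5, Mcm6, Mcm7, and Gins2 (the MCM limit). The 8063 cells of the same libraries below both limits are called the other cells, and 63 cells with 5 or more Jchain UMIs were in neither set.

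The series holds droplet scRNA-Seq of splenic B cells of WT C57BL/6 mice, aged 6 to 12 weeks per the study's methods, purified by negative selection and cultured. Bregs-CpG, with 2 replicates, were kept for 3 days with the TLR9 agonist CpG ODN 1668 (10 μg/mL). Bregs-TLR, also with 2 replicates, had the same culture, and for its last 5 hours they also met PMA at 50 ng/mL, ionomycin at 1 μg/mL, and the TLR4 agonist LPS at 10 μg/mL, so that all cells of the series had met CpG. The labels do not tie the library numbers to samples or mice, so which culture a library came from cannot be told, and libraries 5 and 6 enter as 1 pooled sample whose values are given for each library, with no test. Barcodes were taken to belong, in order, to the last 19920 of 35989 matrix columns, and every value below rests on this.

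A B cell that divides passes through a fixed order of steps. In G1 the MCM helicase is loaded on replication origins, and in S phase the helicase is started and DNA and histones are made. In G2 and mitosis cyclins A and B with CDK1 drive chromosome condensation and spindle assembly. The anaphase-promoting complex then destroys the cyclins, and the cell divides. Genes of the first steps are known as targets of E2F factors, and those of the last steps as targets of the DREAM and MMB complexes and FOXM1. Follicular B cells of the spleen are mostly quiescent, and CpG is a strong mitogen for them.

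Libraries 5 and 6 held 355 and 429 cycling cells, which were 8.51% (95% Clopper-Pearson interval 7.68% to 9.40%) and 9.18% (8.36% to 10.0%) of their cells with fewer than 5 Jchain UMIs. Both intervals cover counting error only, and they overlap. Of the 784 cells, 417 (53.2%) were over the mitotic limit alone, 199 (25.4%) over both limits, and 168 (21.4%) over the MCM limit alone, and the order was the same in each library. The mitotic limit cut through a thin part of the distribution, with 40 cells at 8 or 9 mitotic UMIs, 28 cells at 10 or 11, 501 cells at 20 or more, and 6395 cells with none. The MCM limit cut through a denser part: 91 cells of libraries 5 and 6 lay between 0.08% and 0.1%, and 96 cells between 0.1% and 0.12%.

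**Figure D1:**
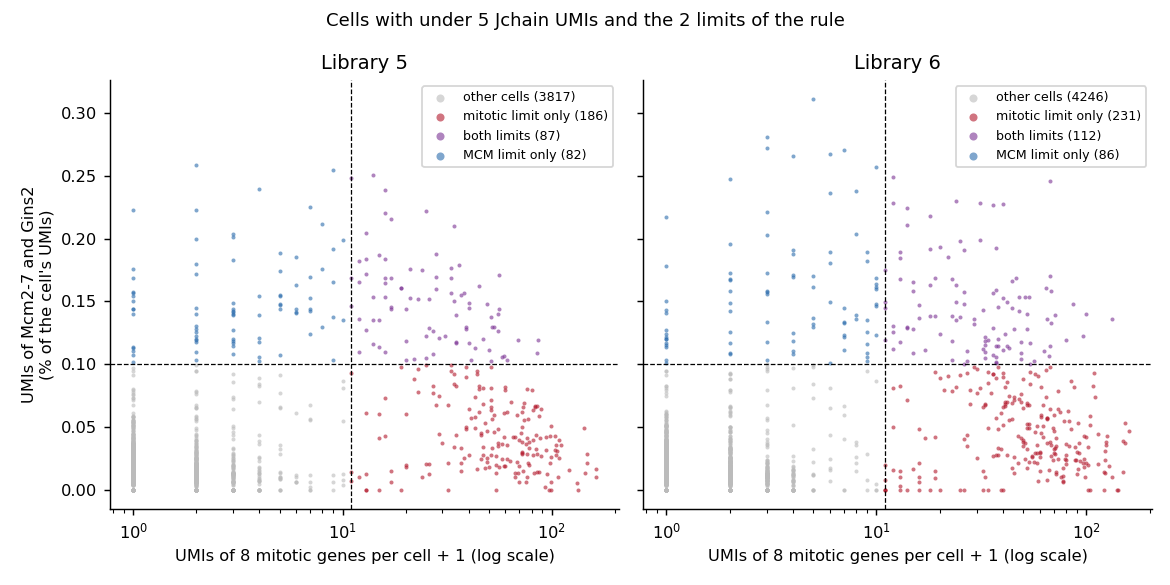
Each point is 1 cell of library 5 (left) or 6 (right) with fewer than 5 Jchain UMIs, plotted by its UMIs of the 8 mitotic genes plus 1 (log axis) and by the percentage of its UMIs in Mcm2 to Mcm7 and Gins2; dashed lines are the limits of 10 UMIs and 0.1%. The 417 cells over the mitotic limit alone, the 199 over both, and the 168 over the MCM limit alone join in 1 arch, and the 8063 other cells fill the corner at the lower left.

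The markers set for these cells were found. Mki67, a protein of the surface of mitotic chromosomes, stood at 353 CPM in library 5 and 395 CPM in library 6, against 3.41 and 3.91 CPM in the other cells (log2 ratio 6.67, 95% exact conditional interval 6.51 to 6.85). Top2a, the topoisomerase that untangles replicated DNA, was at 612 and 648 CPM against 18.6 and 18.8, and Cenpf, a kinetochore protein of G2 and mitosis, at 164 and 173 CPM against 0.667 and 1.10. These 3 genes are part of the rule, so their difference describes the choice. CPM are UMIs of a gene per 1000000 UMIs of the summed cells, and all intervals here cover counting error only. The B cell surface protein Ly6d was at 5332 CPM in library 5 and 5022 CPM in library 6, against 5279 and 5262 CPM in the other cells, and the groups overlapped. Ms4a1, which encodes CD20, was at 1216 and 1257 CPM, against 1558 and 1571 in the other cells, lower in both libraries but still abundant. Both kinds of marker, for the cycle and for B cells, were thus counted in the chosen cells.

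Several defining markers of other cell types had no UMI, while Cst3 and Hbb-bt were measured. Among T cell genes, Cd3e, Trbc2, Cd4, and Cd8a had no UMI in the 8847 cells, and the summed level of the 8 genes was 11.4 and 9.81 CPM in cycling cells, most of it Lck, a kinase that B cells can also express. Of the 9 myeloid genes, Lyz2, C1qa, and C1qb had none, and the sum was 29.97 and 23.7 CPM against 43.7 and 43.02 CPM in the other cells, led by Tyrobp. All 5 granulocyte genes and 5 of the 6 NK cell genes were also listed without a UMI. The 7 dendritic cell genes summed to 100.2 and 99.8 CPM, nearly all of it Cst3, at 95.03 and 94.6 CPM against 96.7 and 98.6. Among the 6 erythroid genes, only the β-globin gene Hbb-bt was measured, at 9.23 and 8.73 CPM against 3.73 and 3.49, while Hba-a1 and Hba-a2 had no UMI. The part of these transcripts in the differences below was not tested.

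Libraries 5 and 6 held 44842982 and 51636750 UMIs in the cells that passed. Cycling cells had more UMIs per cell. Their median UMI count was 16668 in library 5 and 17311 in library 6, against 8434 and 8472 in the other cells, and they showed 3457 and 3584 genes per cell against 2119 and 2166. With every cell thinned to 5000 UMIs, which left out 272 shallower cells, 7 of them cycling, the medians were 1671 and 1685 genes against 1519 and 1540. The median mitochondrial share was 6.09% and 6.18% in cycling cells and 7.32% and 7.29% in the other cells, and the ribosomal protein share was 35.4% and 34.9% against 38.0% and 37.3%. A deep cell reaches 10 mitotic UMIs more easily, and with a limit of 0.1% of UMIs in place of the 10 UMIs, 740 cells were chosen. No doublet caller was run and no doublet was removed. Without the 922 cells over 2 times the median UMI count of their library, which included 365 cycling cells, 419 cycling cells were left, or 5.29% of 7925. Libraries 5 and 6 shared 5 barcodes, 1 of them between cycling cells.

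Over the whole transcriptome, summed UMIs of the cycling cells were compared with those of the other cells within each library, for the 11063 genes with at least 50 UMIs. Since the rule used this contrast, the values describe the chosen cells, and no test was made. At least 2-fold higher in both libraries were 731 genes (6.61% of those measured), and at least 2-fold lower in both were 80 genes (0.723%). The lower count was less firm, with 121 to 132 genes under 3 other scalings and 169 and 174 in single libraries. With cells thinned to 5000 UMIs, only 33 of the 80 were found again. The thinned cells were chosen anew with a mitotic limit of 0.1% of UMIs, and that limit without thinning held 58 of the 80. The median log2 ratio of all genes was 0.07, with 0.08 in library 5 and 0.07 in library 6. Of the 207 genes of the 10 cell cycle lists, 189 were at least 2-fold higher and 1 lower, with a median log2 ratio of 3.15. Outside these lists and the rule, 527 of 10841 genes were higher and 79 lower. As the rule fixed this contrast, nothing further is read from these shares.

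**Figure D2:**
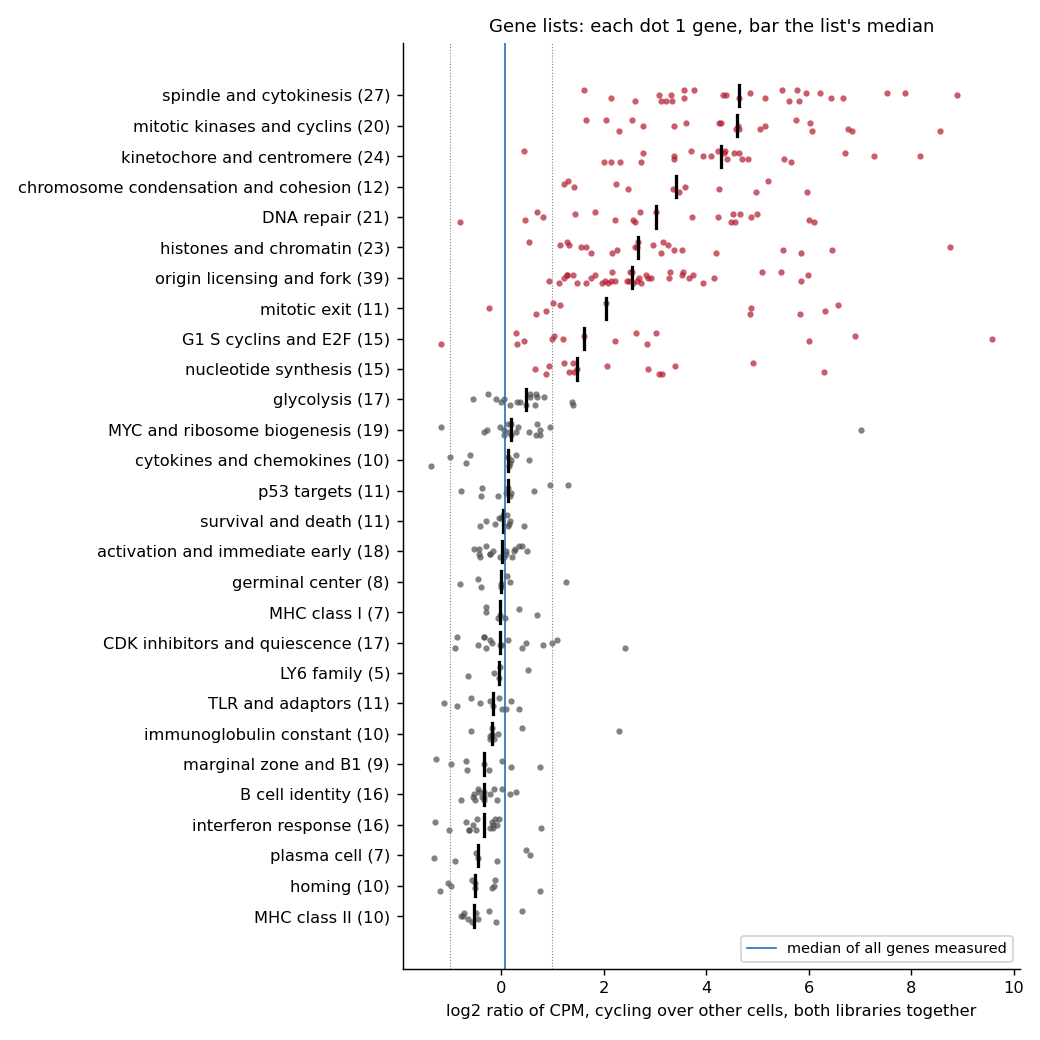
Each dot is 1 measured gene of a list (number of genes in brackets), placed by its log2 ratio of CPM in cycling over other cells with both libraries summed; black bars are list medians, the blue line the median of all genes measured, and dotted lines 2-fold. Cell cycle lists (red) have medians from 1.48 to 4.63, whereas the medians of the other lists (grey), those of the rule, the markers, and other cell types aside, lie between -0.52 and 0.48.

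Genes that license origins and build the replication fork were higher almost throughout. By at least 2-fold in both libraries these were 38 of 39, beside 6.61% of all genes, with a median log2 ratio of 2.55. Cdc6, which loads the MCM helicase on origins, was at 29.1 CPM in library 5 and 29.5 CPM in library 6, against 0.480 and 0.539 CPM in the other cells (log2 ratio 5.84, 5.38 to 6.34). Mcm10, needed to start the loaded helicase, was at 30.4 and 29.8 CPM against 0.587 and 0.375, and Cdc45, a subunit of the moving helicase, at 41.9 and 44.2 CPM against 1.28 and 1.27. Both were near absent from the other cells. Clspn, which encodes the checkpoint mediator claspin, reached 94.04 and 109 CPM against 2.43 and 2.25. Pcna, the sliding clamp of the polymerases, was at 115 and 129.9 CPM against 18.1 and 15.8, a smaller ratio on a higher base. DNA ligase 1, Lig1, which seals Okazaki fragments, was at 133 and 142 CPM against 8.32 and 7.29, and Uhrf1, which guides maintenance methylation to new DNA, at 73.7 and 75.5 CPM against 6.32 and 5.55. The 1 gene under 2-fold was Pold1, the catalytic subunit of polymerase δ, at 43.2 and 46.2 CPM against 24.9 and 22.3 (log2 ratio 0.93, 0.80 to 1.06).

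Of the 15 genes of nucleotide synthesis, 12 were at least 2-fold higher, beside 6.61% of all genes, with a median log2 ratio of 1.48. Rrm2, the S-phase subunit of ribonucleotide reductase, was at 231 CPM in library 5 and 254 CPM in library 6, against 3.25 and 2.95 CPM in the other cells (log2 ratio 6.30, 6.11 to 6.49). Its partner Rrm1 was at 120.5 and 135 CPM against 15.8 and 14.8, and the thymidine kinase Tk1 at 54.7 and 66.01 CPM against 1.92 and 2.11. The genes under 2-fold were Cad, Gmps, and Impdh2, enzymes of pyrimidine and purine synthesis that also serve RNA synthesis. Impdh2, which makes guanine nucleotides, was at 189 and 189 CPM against 98.8 and 97.8 (log2 ratio 0.94).

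The G1/S regulators were split. Ccne2, a cyclin of S-phase entry, was at 20.9 CPM in library 5 and 24.99 CPM in library 6, against 0.373 and 0.351 CPM in the other cells (interval of the log2 ratio 5.45 to 6.60). The repressor E2f8 was at 26 and 27.3 CPM against 0.267 and 0.187, and its relative E2f7 at 9.23 and 9.69 CPM with 1 UMI in all 8063 other cells. The activator E2f1 was at 35.4 and 33.5 CPM against 4.13 and 4.29. D-type cyclins, which link growth signals to G1, did not reach 2-fold higher in both libraries. Ccnd2 was at 201 and 184 CPM against 147 and 133, and Ccnd3 at 119 and 116 CPM against 61.1 and 57.8. Ccnd1 was the only gene of the cell cycle lists at least 2-fold lower, on 10 UMIs in cycling and 117 UMIs in other cells (log2 ratio -1.17, -2.27 to -0.24), and the ratio turned to 0.46 without the cells that had both light chains. In all, 10 of 15 genes of this list were at least 2-fold higher and 1 lower, beside 6.61% and 0.723% of all genes.

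All 20 mitotic kinases, cyclins, and their regulators outside the rule were at least 2-fold higher in both libraries, beside 6.61% of all genes (median log2 ratio 4.59). Ccna2, which encodes cyclin A2 and acts from S phase into mitosis, was at 80.97 CPM in library 5 and 88.5 CPM in library 6, against 0.320 and 0.141 CPM in the other cells (log2 ratio 8.57, 7.90 to 9.32). It rested on 1310 UMIs in cycling cells and 18 UMIs in the other cells. Plk1, the polo-like kinase of mitotic entry, was at 39.3 and 44.2 CPM against 0.400 and 0.375, and the checkpoint kinase Bub1 at 29.8 and 38.4 CPM against 0.347 and 0.258. Ccnb1 and Ccnb2, the B-type cyclins that activate CDK1, were at 63.9 and 62.2 CPM and at 66.2 and 74.97 CPM, against 2.77 and 2.53 CPM and 2.16 and 1.87 CPM. The transcription factor Foxm1 was at 12.8 and 15.9 CPM against 0.400 and 0.469. For each of these 6 genes, both libraries of cycling cells lay above both libraries of other cells. Of all genes measured, 47.5% were higher in both libraries by any size.

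The machinery that these kinases act on was higher with them. At least 2-fold higher were 23 of 24 kinetochore and centromere genes, 27 of 27 spindle and cytokinesis genes, and 12 of 12 condensin and cohesin genes. These counts stand beside 6.61% of all genes, and the median log2 ratios were 4.29, 4.63, and 3.42. Ska1, of the complex that holds microtubules at the kinetochore, was at 33.2 and 31.8 CPM against 0.0800 and 0.141, and Nuf2, of the NDC80 complex, at 33.5 and 35.8 CPM against 0.240 and 0.211. The kinetochore gene under 2-fold was Cenpq, at 39.6 and 43.9 CPM against 29.5 and 31.5. Among spindle genes, the mitotic kinase Pbk was at 59.5 and 59.4 CPM against 0.107 and 0.141 (log2 ratio 8.90, 8.01 to 9.96), and the microtubule destabilizer Stmn1 at 669 and 752 CPM against 13.1 and 10.1. Tubulin genes were abundant in both sets, Tubb5 at 1162 and 1247 CPM against 122 and 117. Smc2 and Smc4, the core of condensin, were at 255 and 267 CPM and at 388 and 413 CPM, and the cohesin subunit Rad21 at 87.9 and 94.2 CPM against 36.9 and 36.6. Esco2, which acetylates cohesin in S phase, had a log2 ratio of 5.98, beside 1.32 for Rad21.

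Of 11 genes that act at mitotic exit, 8 were at least 2-fold higher, beside 6.61% of all genes. Cdc20, the coactivator that turns on the anaphase-promoting complex, was at 65.1 CPM in library 5 and 76.5 CPM in library 6, against 2.29 and 2.62 CPM in the other cells, and separase, Espl1, at 12.5 and 13.5 CPM against 0.133 and 0.141. The exceptions were Fzr1, the coactivator used after mitosis, Cdc27, a subunit of the complex, and Pttg1, or securin, the inhibitor of separase. Pttg1 was at 26.4 and 26.8 CPM against 31.8 and 30.8, a log2 ratio of -0.23 (-0.39 to -0.08), so that it did not follow the other genes of this step.

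Chromatin genes were at least 2-fold higher in 22 of 23 cases, beside 6.61% of all genes (median log2 ratio 2.67). The linker histone gene Hist1h1b was at 809 CPM in library 5 and 911 CPM in library 6, against 12.7 and 7.50 CPM in the other cells (log2 ratio 6.44, 6.34 to 6.55). Histone Hist1h2ap differed between the libraries themselves: cycling cells had 529 CPM in library 5 but 196 CPM in library 6, and the other cells had 12 and 3.87 CPM, so its log2 ratios of 5.46 and 5.66 within the libraries were close. Replication-dependent histone genes are near-identical copies, and how the counting split their reads is uncertain. The chromatin protein Hmgb2 was at 1794 and 1794 CPM against 384 and 362, the variant H2afz at 1749.6 and 1831 CPM against 296 and 293, and the methyltransferase Ezh2 at 226 and 231 CPM against 52.4 and 50.2. Macro-H2A, H2afy, was under 2-fold, at 323 and 338 CPM against 218 and 234.

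DNA repair genes were at least 2-fold higher in 17 of 21 cases, beside 6.61% of all genes. Brca1, which acts in homologous repair, was at 40.5 CPM in library 5 and 41.6 CPM in library 6, against 1.39 and 1.19 CPM in the other cells (log2 ratio 5.00, 4.70 to 5.31), and both libraries of cycling cells lay above the other cells. Ung, the uracil glycosylase of base excision repair, was at 36.6 and 35.3 CPM against 6.16 and 5.58. Pms2 and Apex1, which take part in mismatch and base excision repair, stayed under 2-fold.

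The 3 subsets set by the limits carried different genes, and since the limits chose them, this too is a description. With cells over the MCM limit alone set against cells over the mitotic limit alone, 8596 genes had 50 UMIs; 58 of them (0.675%) were at least 2-fold higher in both libraries and 319 (3.71%) lower. Genes of the mitotic lists, condensin and cohesin included, and the mitotic genes of the rule were 81 of the 319 lower genes (25.4%): 25 of 27 spindle genes, 17 of 20 mitotic kinases and cyclins, and 17 of 24 kinetochore genes were at least 2-fold lower in the MCM-only cells. Of the 39 licensing and fork genes, 9 were higher there and 1, the kinase subunit Dbf4, was lower.

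Plk1 was at 58.9 and 65 CPM in libraries 5 and 6 in cells over the mitotic limit alone, at 14.5 and 19.5 CPM in cells over both, and at 0 and 0.827 CPM in MCM-only cells. Ccnb1 and Cdc20 had the same order, Ccnb1 with 89.7 and 88.4 CPM, 34.2 and 27.5 CPM, and 8.40 and 13.2 CPM. Cyclin A2 was nearly as high in the cells over both limits: Ccna2 was at 104 and 105 CPM, 76.9 and 94.4 CPM, and 4.20 and 8.27 CPM in the same order. In the MCM-only cells, cyclins A and B were thus low but above the other cells.

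In each library, 34 of 39 licensing and fork genes, 13 of 15 nucleotide synthesis genes, and 11 of 15 G1/S genes were highest in the cells over both limits, where 2103 of all 11063 genes (19%) were. Rrm2 was at 480.4 and 474 CPM there, at 189.7 and 199 CPM in mitotic-only cells, and at 62.2 and 98.4 CPM in MCM-only cells. Ccne2, Pcna, Clspn, E2f8, and Tk1 had their highest values in the same subset. Of the 23 histone and chromatin genes, 13 were at least 2-fold lower in MCM-only than in mitotic-only cells, beside 3.71% of all genes. Hist1h1b was at 1132 and 1276 CPM with both limits, 908 and 964 CPM with the mitotic limit alone, and 39.5 and 54.6 CPM with the MCM limit alone.

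Fewer genes were higher in MCM-only than in mitotic-only cells: 9 of 39 licensing and fork genes, 2 of 15 nucleotide synthesis genes, 1 of 14 G1/S genes, and 5 of 21 DNA repair genes passed 2-fold. The share of all genes that did was 0.675%. Ung was at 96.6 and 106 CPM in these cells, 74.9 and 56.5 CPM in cells over both limits, and 6.70 and 9.51 CPM in mitotic-only cells (log2 ratio of the MCM-only over the mitotic-only cells 3.62, 3.25 to 4.01). Cdc6, Chek1, Orc1, and E2f1, which act at origins, at the replication checkpoint, and in S-phase entry, were also at least 2-fold higher in MCM-only than in mitotic-only cells. Outside the cycle genes, the chemokine gene Ccl4 was at 102 and 144 CPM in MCM-only cells, 62.4 and 41.3 CPM in cells over both limits, and 36.98 and 7.53 CPM in mitotic-only cells, while the other cells had 74.5 and 67.1 CPM. The libraries stood apart in the mitotic-only cells for this gene. Il10 was at 23.5 and 32.3 CPM, 13.8 and 11.9 CPM, and 10.4 and 10.9 CPM in these subsets. Ly6d did not separate them by 2-fold, with 5956 and 6108 CPM, 4756 and 4682 CPM, and 5363 and 4903 CPM. The antigen-presenting gene H2-Aa was at 1142 and 1154 CPM in mitotic-only cells, and lower at 540.1 and 649 CPM in MCM-only and 556 and 705 CPM in double-positive cells.

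**Figure D3:**
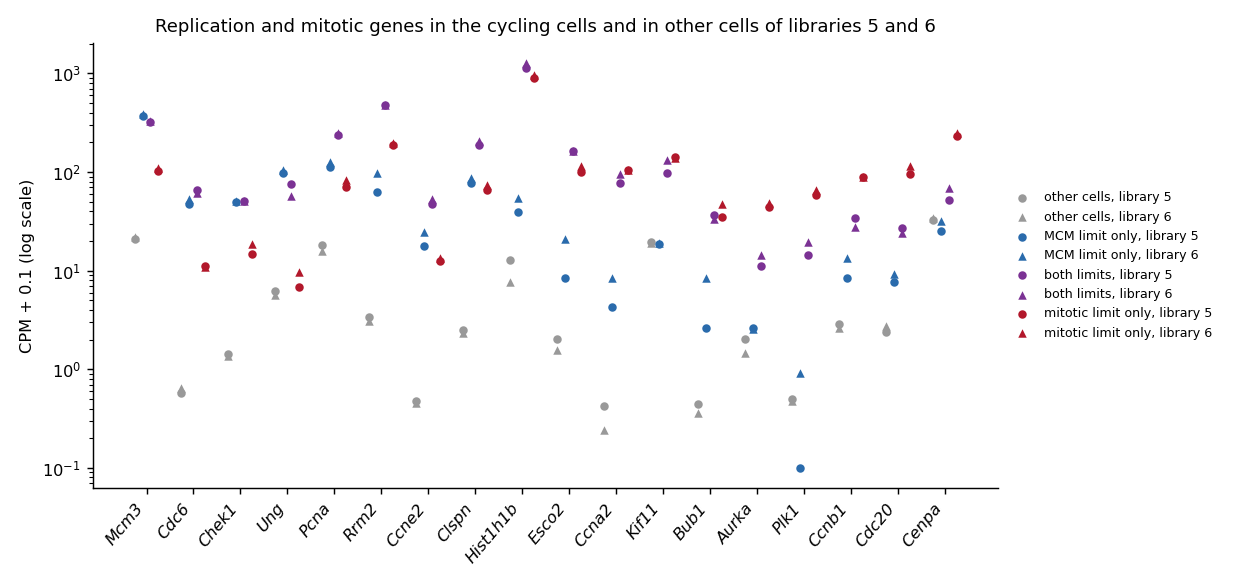
CPM plus 0.1 (log axis) of 18 replication and mitotic genes in the other cells (grey), the cells over the MCM limit alone (blue), over both limits (purple), and over the mitotic limit alone (red); circles are library 5 and triangles library 6, with cells summed. Genes at the left, such as Cdc6 and Ung, are highest in the blue and purple cells, genes in the middle, such as Rrm2 and Clspn, in the purple cells, and genes at the right, such as Plk1 (58.9 and 65 CPM in mitotic-only cells), in the red cells.

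The gene groups also differ in their promoters, which the rule did not use. RefSeq windows of 300 bases (250 before and 50 after the start, GRCm38.p6) were searched on both strands for the cell cycle homology region (CHR; TTTGAA or TTCGAA), for CCAAT, and for E2F sites (TTTCCCGC, TTTGGCGC, TTTCGCGC, or TTTGCCGC, which may overlap each other). A window was found for 78 of 90 mitotic genes (those of the rule and of the kinase, kinetochore, spindle, and exit lists, without condensin and cohesin), for 51 of 61 replication and nucleotide genes, and for 20 of 26 B cell identity and MHC class II genes. A CHR stood in 65.4% of the mitotic genes, 21.6% of the replication genes, and 10% of the B cell genes, against 21.7% of all 27025 genes with a window. CHR and CCAAT stood together in 53.8% of mitotic genes and 8.61% of all genes. CCAAT, with or without a CHR, stood in 74.4% of mitotic, 56.9% of replication, and 60% of B cell genes, against 41.1% of all genes. It did not set the replication genes apart from the B cell genes. An E2F site was present in 33.3% of the replication genes, 6.41% of the mitotic genes, and 2.60% of all genes. Among the genes measured here that have a window, CHR and E2F shares were 16.9% and 4.90%. In the 527 genes that were higher outside the lists, of which 378 had a window, they were 26.2% and 12.4%. In the 80 lower genes, of which 55 had a window, the CHR share was 21.8% and no E2F match was found. A match is a run of letters in the window and not a measured site.

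The 160 bases before the start are shown for 4 mitotic genes and 2 MCM genes, as examples of the letters counted above. They were chosen after their matches were seen, and all but Cdc20 are genes of the rule. They are read 5′ to 3′ on the strand of the gene, from RefSeq GRCm38.p6, with every CHR, CCAAT, and E2F match on either strand in capitals (ATTGG and TTCAAA are CCAAT and CHR on the other strand). The windows are Cdc20 at chr4:118437344-118437503, minus strand; Cdk1 at chr10:69352913-69353072, minus strand; Top2a at chr11:99024190-99024349, minus strand; Ube2c at chr2:164769769-164769928, plus strand; Mcm5 at chr8:75109349-75109508, plus strand; and Mcm6 at chr1:128359706-128359865, minus strand.
Cdc20: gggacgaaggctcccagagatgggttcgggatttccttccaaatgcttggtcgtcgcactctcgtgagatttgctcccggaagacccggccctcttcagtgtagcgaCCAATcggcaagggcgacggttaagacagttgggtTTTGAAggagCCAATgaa
Cdk1: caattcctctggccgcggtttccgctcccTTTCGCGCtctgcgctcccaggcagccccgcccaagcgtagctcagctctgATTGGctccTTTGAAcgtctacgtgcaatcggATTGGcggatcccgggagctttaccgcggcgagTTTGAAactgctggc
Top2a: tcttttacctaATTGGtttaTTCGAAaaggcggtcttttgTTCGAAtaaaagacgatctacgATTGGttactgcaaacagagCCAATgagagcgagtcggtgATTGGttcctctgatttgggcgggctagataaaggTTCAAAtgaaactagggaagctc
Ube2c: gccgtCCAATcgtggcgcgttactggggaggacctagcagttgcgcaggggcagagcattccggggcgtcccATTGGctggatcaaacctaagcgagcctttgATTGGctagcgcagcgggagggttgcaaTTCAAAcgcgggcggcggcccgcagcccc
Mcm5: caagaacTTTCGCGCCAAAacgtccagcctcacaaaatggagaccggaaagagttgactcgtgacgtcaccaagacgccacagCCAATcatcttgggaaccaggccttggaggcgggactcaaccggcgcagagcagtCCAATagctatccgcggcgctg
Mcm6: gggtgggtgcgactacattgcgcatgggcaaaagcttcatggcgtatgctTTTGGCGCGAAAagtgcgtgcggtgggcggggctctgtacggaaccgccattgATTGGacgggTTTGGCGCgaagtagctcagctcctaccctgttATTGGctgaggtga
The 4 mitotic promoters each hold a CHR and CCAAT, and Cdk1 also holds an E2F match. Both MCM promoters hold overlapping E2F matches and CCAAT but no CHR in this stretch. Other MCM genes differed: in their 300-base windows, Mcm2 holds a CHR and no E2F match, and Mcm7 holds both. Cdc20, the 1 gene shown that the rule did not use, was at 94.3 and 115 CPM in mitotic-only cells against 7.56 and 9.10 CPM in MCM-only cells.

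Inhibitors of the cycle differed one by one: of 17 CDK inhibitors and quiescence genes, 2 were at least 2-fold higher and none lower, beside 6.61% and 0.723% of all genes, with a median log2 ratio of -0.02 beside 0.07 for all genes. Cdkn1a, which encodes p21, was at 26.3 CPM in library 5 and 20.9 CPM in library 6, against 4.45 and 4.31 CPM in the other cells (log2 ratio 2.42, 2.20 to 2.63), and Cdkn2a at 25.3 and 21.05 CPM against 11.6 and 10.01. Cdkn1b, the gene of p27, was alike in both sets, at 77.1 and 79.3 CPM against 77.5 and 81.1. The antiproliferative genes Btg1 and Btg2 were lower in both libraries, Btg1 at 409 and 408 CPM against 732 and 743 (log2 ratio -0.85, -0.89 to -0.82). Of the 11 p53 target genes, 1 was more than 2-fold higher, the stress gene Sesn2, beside 6.61% of all genes.

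The MYC network was split between its antagonists. Mxd3 was at 26.3 and 28.5 CPM in cycling cells against 0.187 and 0.234 (log2 ratio 7.02, 6.32 to 7.81), and it had no UMI in the MCM-only cells. Mxd4, another partner of MAX, was at 21.6 and 25.6 CPM against 53.6 and 53.6 (log2 ratio -1.17, -1.33 to -1.02). Myc itself was at 17.9 and 14.5 CPM against 14.99 and 15.8, and the groups overlapped. Of the 19 genes of this list, 13 were higher in both libraries by any size, beside 47.5% of all genes, with a median log2 ratio of 0.20. Nucleolin, Ncl, was at 809 and 791 CPM against 498 and 483, and Npm1 at 1848 and 1936 CPM against 1185 and 1189, without reaching 2-fold.

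B cell identity genes were lower in both libraries by any size in 13 of 16 cases, beside 33.1% of all genes measured, and none by 2-fold (median log2 ratio -0.33). Cd79a, the signaling chain of the B cell receptor, was at 2236 CPM in library 5 and 2324 CPM in library 6, against 3212 and 3399 CPM in the other cells (log2 ratio -0.54, -0.55 to -0.52). Pax5, which holds the B cell program, was at 179 and 184 CPM against 174 and 184, with overlapping groups, while Ebf1 was at 925 and 880.1 CPM against 1282 and 1282. Of the 7 plasma cell genes measured, none passed 2-fold in both libraries, and the median log2 ratio was -0.11 in library 5 and -0.40 in library 6. Prdm1, which drives plasma cell differentiation, was at 6.25 and 6.70 CPM against 11.2 and 12.9, and Mzb1 at 1056 and 1089 CPM against 1457 and 1551. The Jchain limit of the rule bears on this list. Among germinal center genes, Mef2b was higher, at 33.7 and 30.7 CPM against 15.04 and 11.9, whereas Bcl6, the master regulator of the germinal center, was at 14.9 and 11.4 CPM against 16.99 and 17.1.

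MHC class II genes were lower in 9 of 10 cases in both libraries, beside 33.1% of all genes, again none by 2-fold (median log2 ratio -0.52). The invariant chain gene Cd74 was at 4411 CPM in library 5 and 4698 CPM in library 6, against 7328 and 7642 CPM in the other cells (log2 ratio -0.71, -0.73 to -0.70). The β chain H2-Eb1 was at 1186 and 1249 CPM against 1993 and 2072. The exception was H2-DMb1, a subunit of the peptide editor H2-DM, at 45.9 and 45.7 CPM against 32.5 and 35.8. Of the 7 MHC class I genes, 3 were higher and 4 lower by any size in both libraries, beside 47.5% and 33.1% of all genes (median log2 ratio -0.02). B2m, the light chain they share, was at 506 and 502 CPM against 612 and 627, and H2-K1 at 573 and 579 CPM against 519 and 565.

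Of the 10 immunoglobulin constant genes measured, 7 were lower by any size in both libraries, beside 33.1% of all genes, and none by 2-fold. Ighm was at 3051 and 3204 CPM against 3375 and 3539, Ighg2b at 406 and 402 CPM against 427 and 409, and the κ chain gene Igkc at 7585 and 7434 CPM against 8700.1 and 8716. Ighg2c was more than 2-fold higher on 33 UMIs in cycling and 35 UMIs in other cells, and with no Jchain limit its log2 ratio turned to -2.48. Most cells had UMIs of both κ and λ chains, and among cells with at least 20 light chain UMIs, λ UMIs outnumbered κ UMIs in 9.60% (6.74% to 13.2%) and 14.1% (10.9% to 17.8%) of cycling cells against 15.4% and 16.9% of the other cells.

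**Figure D4:**
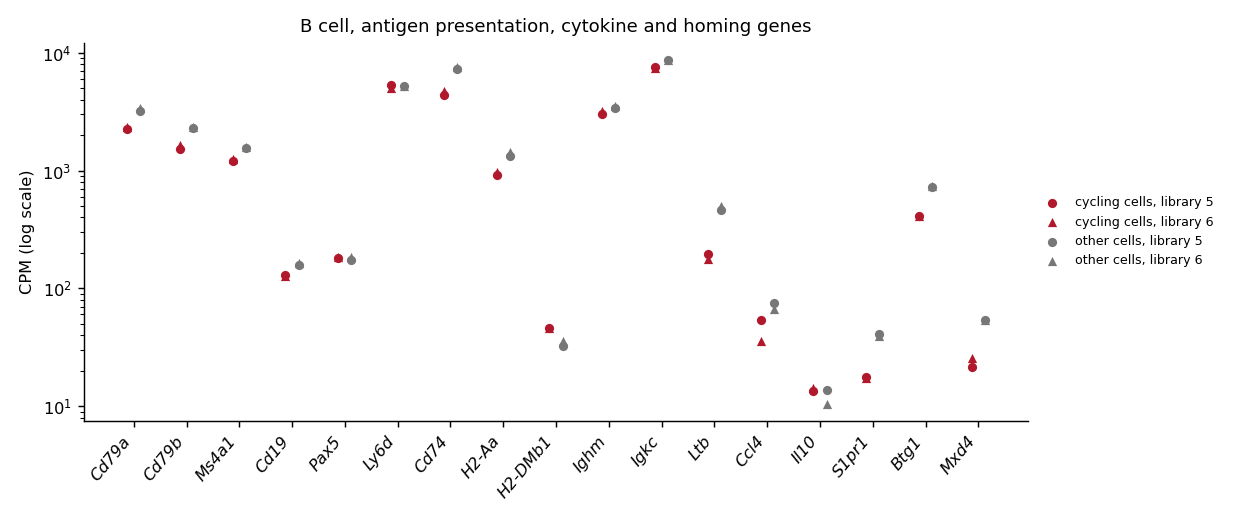
CPM (log axis) of 17 B cell, antigen presentation, cytokine, homing, and quiescence genes in cycling cells (red) and other cells (grey), with circles for library 5 and triangles for library 6 and cells summed. Ly6d and Pax5 lie side by side in both sets, Cd79a, Cd74, and H2-Aa are lower in cycling cells by less than 2-fold, and Ltb (195 and 177 CPM against 459.7 and 496) and S1pr1 are lower by more.

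Among cytokine genes, Ltb, the lymphotoxin chain that helps to build lymphoid tissue, was at 195 CPM in library 5 and 177 CPM in library 6, against 459.7 and 496 CPM in the other cells (log2 ratio -1.37, -1.42 to -1.31). It was lower in every subset of the cycling cells. Il12a, the p35 chain of IL-12 and IL-35, was at 23.7 and 24.4 CPM against 48.6 and 47.7. Il10, for which regulatory B cells are known, was at 13.4 and 14.2 CPM against 13.8 and 10.4, and the groups overlapped. Il6 and Tgfb1 did not differ by 2-fold either. Ccl3 was at 47.7 and 44.4 CPM against 39.8 and 42.1.

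Homing genes were lower by any size in 9 of 10 cases in both libraries, beside 33.1% of all genes, and 1 was more than 2-fold lower, beside 0.723% (median log2 ratio -0.50). S1pr1, the receptor for egress from lymphoid tissue, was at 17.6 CPM in library 5 and 17.5 CPM in library 6, against 41.05 and 39.4 CPM in the other cells (log2 ratio -1.20, -1.38 to -1.02). Ccr7, which guides cells to the T cell zone, was at 118 and 119 CPM against 122 and 135. Cxcr4, the receptor of the dark zone, was the exception at 7.39 and 8.37 CPM against 4.40 and 4.87. Interferon response genes were lower by any size in both libraries in 13 of 16 cases, beside 33.1% of all genes. Ifi27l2a, the most abundant of them, was at 1204 and 1204 CPM against 1716 and 1633. Mx1, on 18 and 229 UMIs, was the only one past 2-fold, beside 0.723% of all genes. Its log2 ratio turned to 0.24 without the cells that had both light chains. Of the Toll-like receptors, Tlr9, the receptor of CpG, was at 1.14 and 0.598 CPM against 1.89 and 1.76. Its values in cycling cells rest on few UMIs, and no difference is read from them. The TLR trafficking protein Unc93b1 was at 339.5 and 345 CPM against 433 and 470.4. None of the 11 measured genes of this list passed 2-fold in both libraries.

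Activation, survival, and metabolic genes gave smaller differences. Cd83 was at 404 and 387 CPM against 517 and 532, the adhesion receptor Cd44 at 188 and 184 CPM against 129 and 131, and none of the 18 measured activation and immediate early genes passed 2-fold. Of 11 survival and death genes none did; Bcl2 was at 219 and 224 CPM against 279.6 and 307. Glycolysis genes were higher by any size in 12 of 17 cases in both libraries, beside 47.5% of all genes (median log2 ratio 0.48), and 2 passed 2-fold, beside 6.61% of all genes: Pfkp, the platelet-type phosphofructokinase, at 62.5 and 65.2 CPM against 24.1 and 24.9, and the lactate transporter Slc16a1 at 11.4 and 11.5 CPM against 4.75 and 3.94. Gapdh was at 996 and 1091 CPM against 644 and 663, and Aldoa was lower at 202 and 188 CPM against 286 and 281.

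Outside the lists, the genes with the largest ratios in both libraries at 50 CPM or more in either set included Pclaf, Dlgap5, Cit, Asf1b, Lockd, Asns, Dtl, Lmnb1, and Mthfd2. Pclaf, a PCNA-binding protein of S phase, was at 598 CPM in library 5 and 649.9 CPM in library 6, against 3.68 and 2.27 CPM in the other cells (log2 ratio 7.74, 7.55 to 7.93). Dlgap5 and Cit act on the spindle and in cytokinesis, and Asf1b and Dtl in histone supply and S-phase protein turnover. Asns, the asparagine synthetase, and Mthfd2, a mitochondrial enzyme of folate metabolism, have no direct part in division. Asns was at 69.6 and 79.4 CPM against 7.79 and 6.44, and Mthfd2 at 160.2 and 168 CPM against 23.1 and 20.8. The 10 lowest by the same rule were Neurl3, Pik3ip1, Il4i1, Lrrc25, Ypel2, AB124611, Tnfaip8l2, Plac8, AY036118, and Gmfg, of which Neurl3, Pik3ip1, and Il4i1 passed 2-fold in both libraries. Pik3ip1, an inhibitor of PI3K, was at 28.1 and 30.1 CPM against 59.6 and 61.5, and Neurl3, a ubiquitin ligase, at 45.9 and 49.03 CPM against 106 and 115.

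The same limits were applied to libraries 7 and 8, where they chose 1076 cells (19.3%, 18.3% to 20.4%) and 751 cells (18.9%, 17.7% to 20.1%). The makeup of the chosen cells also differed: cells over the MCM limit alone were 72.2% and 65.5% of the chosen cells in libraries 7 and 8, against 23.1% (18.8% to 27.8%) and 20.05% (16.4% to 24.2%) in libraries 5 and 6. Cells over the mitotic limit, with or without the MCM limit, were not a larger share in libraries 7 and 8: they were 6.54% (5.81% to 7.34%) and 7.34% (6.61% to 8.12%) of the cells in libraries 5 and 6, against 5.37% (4.79% to 5.996%) and 6.52% (5.77% to 7.33%). Since no label names the libraries, the difference was not tested, and library and culture cannot be told apart.

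**Figure D5:**
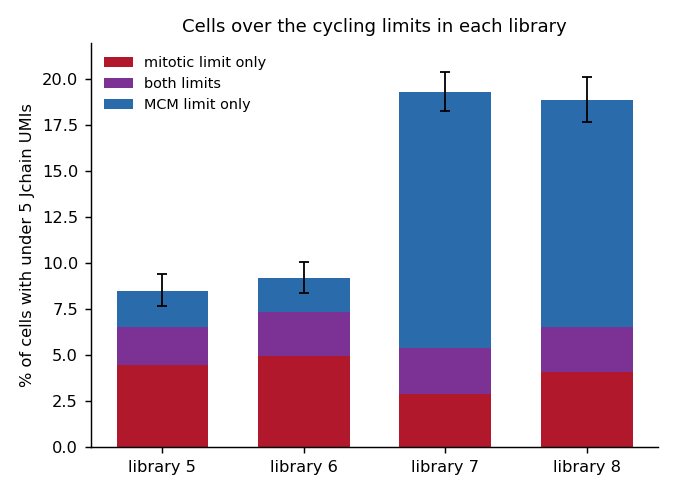
Bars give the percentage of cells with fewer than 5 Jchain UMIs that were over the mitotic limit alone (red), over both limits (purple), or over the MCM limit alone (blue) in libraries 5 to 8; error bars are 95% Clopper-Pearson intervals of the total. Totals are 8.51% and 9.18% in libraries 5 and 6 and 19.3% and 18.9% in libraries 7 and 8, where most of the bar is blue.

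Ratios of single genes within libraries 7 and 8 were set beside those of libraries 5 and 6, with the reminder that the chosen cells there had another makeup. Asns had log2 ratios of 3.16 and 3.62 in libraries 5 and 6 but 0.26 and 0.16 in libraries 7 and 8, and Mthfd2 2.79 and 3.02 but 0.29 and 0.41. Tuba1b, a tubulin gene, had 3.50 and 3.61 but 0.99 and 0.99, and the histone variant H2afx 3.53 and 3.53 but 0.71 and 1.09. E2f2, which was under 2-fold in libraries 5 and 6 (0.23 and 0.38), had 2.04 and 1.88 in libraries 7 and 8, and the CDK inhibitor Cdkn2c 0.38 and 0.43 and 1.96 and 1.69. S1pr1 had -1.22 and -1.18 in libraries 5 and 6 and 0.49 and 1.02 in libraries 7 and 8. Mki67, a gene of the rule, had 6.69 and 6.66 and 6.37 and 6.80.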

How the data were processed

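Mouse splenic B cells cultured as Bregs-CpG or Bregs-TLR (2 replicates each) were profiled with the 10x Chromium 3′ v3 kit. Per the study's methods and the submitters' processing notes, the authors used bcl2fastq and Cell Ranger 3.1.0, aligned to mm10 with Ensembl genes, and joined the libraries with the aggregation step, which can even out depth between libraries. The deposited matrix holds UMI counts for 31053 features in 35989 columns. The last 19920 columns were taken as the deposited barcodes in order, and 16069 columns without a barcode were not used.

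Cells with at least 1000 genes and under 10% mitochondrial UMIs were kept. No doublet caller was run. The members and gene lists were chosen with earlier results of these data known. Counts were summed over cells per library and set, and given as CPM. Log2 ratios have exact conditional 95% intervals and shares Clopper-Pearson intervals, for counting error only. A gene was called at 2-fold in both libraries among genes with at least 50 UMIs. A count of 0 was set to a floor of 3 counts for ratios. Since libraries could not be assigned to samples, they were 1 pooled sample and no test was run. Genes named were those of the lists and the 10 highest and 10 lowest outside them at 50 CPM or more, ranked by the smaller log2 ratio of the libraries. Some genes are not reported here. The calls were tested on simulated data. Alternatives covered cell filters, limits, depth, doublets, scaling (with edgeR 4.0.16 for TMM factors), gene filters, and single libraries. Python 3.11.15, NumPy 2.4.6, SciPy 1.17.1, and pandas 2.3.3 were used.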

Additional observations from a re-analysis of the deposited data

Results flagged for a closer look

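Cells with 5 or more Jchain UMIs were outside the comparison, and some of them also passed the cycling limits. In libraries 5 and 6 these were 6 of 63 cells, or 9.52% (95% Clopper-Pearson interval 3.58% to 19.6%), above the 4.76% (3 counts) that a count of 0 allows in 63 cells, although the interval covers that limit. Of the cells with fewer than 5 Jchain UMIs in the same libraries, 8.86% (8.28% to 9.47%) passed these limits. The 9.52% was thus near the share of the remaining cells. None of the 24 such cells of library 5 and 6 of the 39 in library 6 passed, so the value rests on library 6. The 6 cells had 2256 CPM of Jchain and 34125 CPM of Ighm, against 7455 and 61134 CPM in the other 57 cells, and 737 CPM of Mki67 against 35.4 CPM.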

How the results depend on the processing

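No paired analysis was possible because the libraries carry no replicate number from the labels and no result comes from a test. The share of cycling cells (8.86%) moved to 7.22% with an MCM limit of 0.2%, to 10.5% with 0.05%, and to 5.29% without cells over 2 times the median UMI count. The library values were 8.51% and 9.18%. The 731 higher genes became 1177 with at least 1 UMI per gene, 1403 at 1.5-fold, and 384 without cells that had both light chains, a setting that kept only 549 cells, 52 of them cycling. Single libraries gave 758 and 765. The 80 lower genes were less stable: 140 with cells thinned to 5000 UMIs and 117 without cells over 2 times the median, each of which held only 33 of the 80, 116 without cells that had both light chains, which held 10 of the 80, 123 with a denominator without mitochondrial, ribosomal protein, and immunoglobulin genes, 121 with median-of-ratios factors, 132 with TMM factors, 38 with at least 200 UMIs, 408 at 1.5-fold, and 169 and 174 in single libraries. The thinned cells were chosen anew, with a mitotic limit of 0.1% of UMIs. The median log2 ratio of all genes, 0.07, was -0.03 and -0.05 under the denominator and TMM scalings, so small differences are relative to it. Among named genes past 2-fold, log2 ratios changed sign for Ccnd1 (0.46) and Mx1 (0.24) without cells that had both light chains. That of Ighg2c changed sign (-2.48) with no Jchain limit. The causes were not tested. List medians under 2-fold in the main setting could not be counted as reversed, whatever their sign became. None of the larger medians was reversed, and 129 of 720 values were counted as moved. Of the 9240 values of named genes, 3 were reversed and 1960 more fell outside the main interval. Reversal was counted only for the 232 of 462 genes past 2-fold in the main setting. Sign changes of the remaining genes were not counted. The settings of 1 UMI, 200 UMIs, and 1.5-fold cannot change these ratios. Genes with few UMIs, and the MCM-only subset of 168 cells, are limited by depth.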
